A study of Mus musculus with 6 samples.

Results

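Trophectoderm is the outer cell layer of the blastocyst and the founder of the placenta, and a small network of transcription factors sets it up. Tead4, the DNA-binding partner of the Hippo coactivator Yap1, acts upstream of Cdx2 and Gata3, while Eomes, Elf5, Tfap2c and Ets2 maintain trophoblast stem cells and Hand1 drives the giant cells derived from them. Embryonic stem (ES) cells come from the other lineage of the blastocyst, the inner cell mass, in which Cdx2, Eomes and Elf5 among them are held silent. CTCF, which binds DNA through its zinc fingers and stalls cohesin, marks many of the borders between the contact domains in which such genes lie.

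The data are the 50 kb bins of 8 genes, Cdx2, Eomes, Elf5, Tfap2c, Gata3, Hand1, Tead4 and Ets2. The bins and bin pairs within 1 Mb on either side were included. The genes were listed by name, and each was placed by its start in mm10. For Tfap2c, Hand1 and Tead4 the lower coordinate stood in for the start, and it may be the far end of the gene. All 8 bins were usable, of 28229 usable autosomal bins in all. Their surroundings held 302 of the 22636 bins with an insulation score, and 224 of the 330794 bin pairs tested.

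Contact maps came from mouse ES cells, strain 129, by Hi-C with MboI digestion and ligation in the nucleus. The Del8 group was 3 libraries with the genotype GFP-CTCF-Del8, a CTCF that lacks zinc finger 8, and the WT group was 3 libraries with the genotype wild type. The study's design text has GFP-CTCF-expressing cells as the counterpart of the mutant, so it is not settled here whether the WT libraries carry the tag, or whether each group is 1 clone. No agent, time or sex is given for either group, and the text speaks of biological replicates. Contact maps hold no RNA, so neither the ES cell label nor the activity of any gene could be checked.

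The Del8 libraries held 66266759, 46925260 and 38088173 contacts, and the WT libraries 24038030, 24512722 and 36233407. The median usable bin had 1046 to 2431 contacts, depending on the library. WT replicates 1 and 2 stood apart: 38.1% and 38.8% of autosomal bins were short of contacts in them, against 11.9% or less in each of the other 4 libraries. A bin was therefore used only if its coverage held up in all 6 libraries, and results are given for the comparison against WT replicate 3 alone where that changed a call or moved a called value by over 1.5 times. With a looser screen, which asks only for 20 contacts per library, limma called 0 of 36012 insulation scores in either direction across the genome (1497 higher and 1647 lower at unadjusted p under 0.05), so every insulation call below rests on the stricter screen.

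Positions are those of the RefSeq table for GRCm38.p6, the same build as mm10. Cdx2 lies at chr5:147300900-147307249 on the minus strand, and its bin, chr5:147300001-147350000, also holds the lower ends of Flt3 and Urad. Eomes lies at chr9:118478186-118486132 on the plus strand, in bin chr9:118450001-118500000. Elf5 lies at chr2:103412098-103450989 on the plus strand, in bin chr2:103400001-103450000. Gata3 lies at chr2:9857078-9887953 on the minus strand, in bin chr2:9850001-9900000. Ets2 lies at chr16:95702407-95721049 on the plus strand, in bin chr16:95700001-95750000. The table gives no strand for the remaining 3 genes, so their lower coordinate was used, which may be either end of the gene. Tfap2c lies at chr2:172545678-172558622 (bin chr2:172500001-172550000), Tead4 at chr6:128227143-128300813 (bin chr6:128200001-128250000) and Hand1 at chr11:57828713-57832147 (bin chr11:57800001-57850000, with the lower end of Sap30l). Neighbouring genes (protein-coding ones only) were placed in bins by their lower coordinate throughout. In what follows, a signed distance in kb runs from the gene's bin, positive toward higher coordinates.

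The promoters of Elf5 and Eomes, whose bins formed the 3 pairs that passed the test below, are shown next. CCCTC, the sequence that CTCF is named after, is marked in both. Each runs 5′ to 3′ along the gene from 250 bases before the start to 50 after it, as RefSeq gives it, with CCCTC and its reverse complement GAGGG in capitals. The first is the upstream promoter of Elf5, chr2:103411848-103412147 (plus strand), and the second that of Eomes, chr9:118477939-118478238 (plus strand).
Elf5 promoter: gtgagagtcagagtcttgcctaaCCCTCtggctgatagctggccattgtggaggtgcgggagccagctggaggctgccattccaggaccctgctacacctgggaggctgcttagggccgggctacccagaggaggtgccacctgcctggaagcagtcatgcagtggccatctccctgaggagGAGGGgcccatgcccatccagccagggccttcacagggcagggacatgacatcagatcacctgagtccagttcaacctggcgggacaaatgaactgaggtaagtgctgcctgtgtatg
Eomes promoter: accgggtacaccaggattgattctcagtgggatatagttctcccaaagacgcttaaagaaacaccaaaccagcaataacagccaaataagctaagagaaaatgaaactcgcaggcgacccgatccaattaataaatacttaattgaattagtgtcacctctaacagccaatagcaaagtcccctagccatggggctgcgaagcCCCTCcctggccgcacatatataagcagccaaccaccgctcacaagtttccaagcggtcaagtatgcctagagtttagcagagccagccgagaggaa

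Promoters were listed for 5 of the 8 genes, Cdx2, Eomes, Elf5 (with 2), Gata3 and Ets2. All 6 of these windows held CCCTC on either strand, from 1 match in Eomes to 5 in Gata3, and so did 66% of the 32851 promoters in the table. A match is a run of letters and not a measured site, and a 50 kb bin cannot tell a promoter from its surroundings.

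The insulation score is log2 of the mean balanced contact inside a 500 kb square that spans a bin, over the mean of its chromosome. A low score marks a border across which there is little contact, and a rise in the score means more contact across the bin. At the genes' own bins the score rose in Del8 cells at 4 of 8, Tead4, Elf5, Eomes and Tfap2c, and passed the test in the other direction at 0 of 8 (limma, adjusted p under 0.05). At an unadjusted p under 0.05 the counts were 5 higher and 1 lower, against 7541 and 6838 of all 22636 bins. By groups that do not overlap they were 5 higher and 1 lower, against 34.3% and 31.5% of all bins. Over all bins tested, 31.0% were called higher and 27.6% lower (58.6% in all), so a bin that changed was common. With each library centred on its median score, 4 bins were higher and 1, that of Ets2, was lower.

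**Figure D1:**
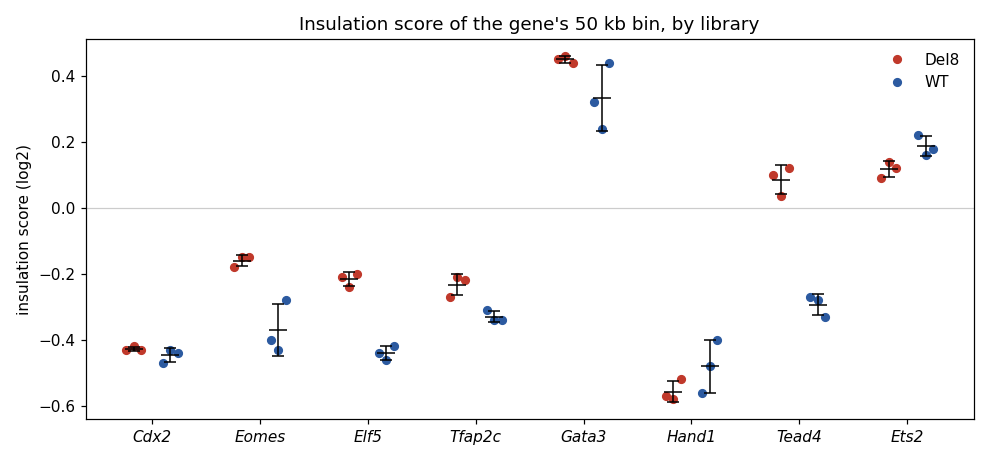
Insulation score (log2) of the 50 kb bin of each gene, 1 point per library, Del8 in red and WT in blue; bars are the mean and SD of 3 libraries. The Tead4 bin lies at 0.036 to 0.12 in Del8 cells and at -0.33 to -0.27 in WT cells, the widest gap of the 8.

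Tead4 showed the largest change of the 8 bins. Its score was 0.10, 0.036 and 0.12 in Del8 replicates 1 to 3 and -0.27, -0.28 and -0.33 in WT replicates 1 to 3. The groups did not overlap, and the difference of 0.38 ± 0.032 (SE, limma adjusted p = 6.91e-05) was larger than that of 96.8% of all bins tested. This bin holds the gene's lower coordinate, and which end is the start was not given. Measured at the other end of the gene, 100 kb away, the difference was 0.54. In a 250 kb square the difference at the Tead4 bin was 0.15, still past the threshold (adjusted p = 0.0262).

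The rise around Tead4 was not limited to its own bin. In 13 adjacent bins, from -250 to +350 kb, the score was higher in Del8 cells, by 0.11 to 0.71. The largest rise lay at +250 kb, in the bin of Pzp, a plasma protease inhibitor of the alpha-2-macroglobulin family, with 0.061, 0.14 and 0.14 in Del8 cells against -0.54, -0.63 and -0.62 in WT cells (difference 0.71 ± 0.035 SE, limma adjusted p = 1.62e-05, above 99.9% of all bins). Neighbouring bins share most of their squares, so the 13 bins are not separate observations. The same surroundings held 6 bins with a lower score, the lowest at -550 kb in the bin of Prmt8, an arginine methyltransferase gene. Its score was 0.15, 0.15 and 0.12 in Del8 cells and 0.26, 0.29 and 0.23 in WT cells, a difference of -0.12 that missed the threshold with WT replicate 3 alone (-0.092, limma adjusted p = 0.0528) and with raw counts over bin coverage (-0.075, adjusted p = 0.0775).

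Contacts of the Tead4 bin itself, that of the lower coordinate, were split by distance, as observed over expected contact. Here 1 is the mean of the chromosome at that distance. Between 300 and 500 kb the values were 1.08, 1.14 and 1.20 in Del8 cells, against 0.734, 0.85 and 0.618 in WT cells. Del8 cells thus had 1.55-fold as much contact at this range, with no overlap between the groups. From 550 to 1000 kb the values were 1.05, 1.12 and 1.05 in Del8 cells and 0.791, 0.97 and 0.779 in WT cells, again with no overlap, a ratio of 1.27. Nearer the gene, from 100 to 250 kb, the groups overlapped, with means of 1.27 ± 0.0439 in Del8 cells and 1.26 ± 0.037 in WT cells (SD, n = 3 each). Of all bins measured, 16.4% lay higher without overlap at 300 to 500 kb and 17.9% at 550 to 1000 kb.

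**Figure D2:**
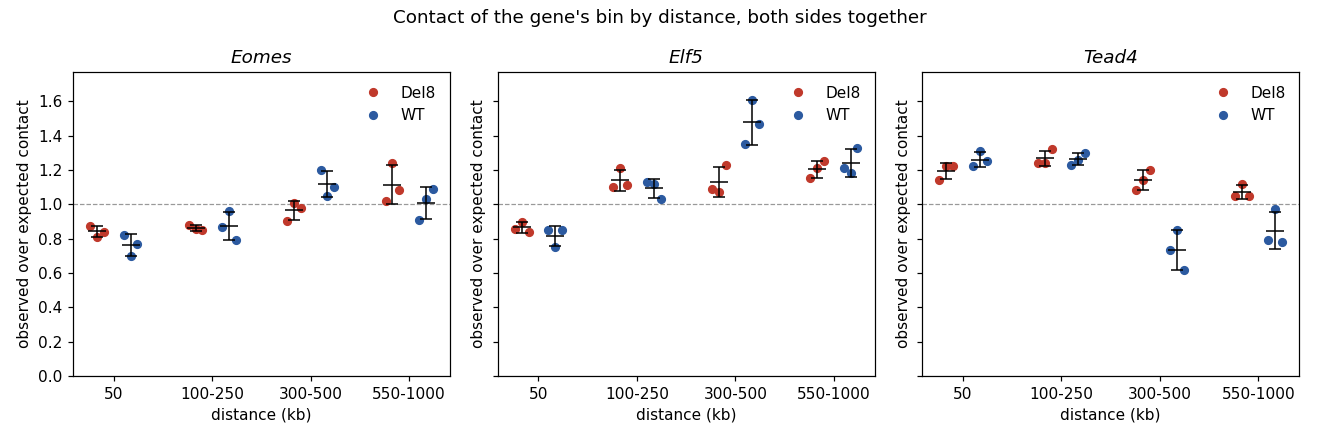
Observed over expected contact of the Eomes, Elf5 and Tead4 bins by distance of the partner (kb), both sides together, 1 point per library, Del8 in red and WT in blue, with mean and SD of 3 libraries; the dashed line marks 1, the mean of the chromosome. Tead4 lies at 1.08 to 1.20 in Del8 cells and at 0.618 to 0.85 in WT cells at 300 to 500 kb, and Elf5 at 1.07 to 1.23 in Del8 cells and at 1.35 to 1.61 in WT cells.

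Summed over 100 kb to 1 Mb on both sides, the Tead4 bin had a local contact level (log2 of observed over expected) of 0.20, 0.25 and 0.29 in Del8 cells and 0.0023, 0.12 and -0.007 in WT cells. The difference of 0.20 ± 0.054 did not pass the test across bins (limma adjusted p = 0.0567). It passed on balanced contact (0.21, adjusted p = 0.0174) and without WT replicate 2 (0.25, adjusted p = 0.0479). This was the largest local change of the 8 genes, and limma called 0 of them in either direction, with 1 at an unadjusted p under 0.05. Over all bins, 2.92% were called higher and 2.72% lower (5.63% in all). At an unadjusted p under 0.05, 3141 of all 25626 bins were higher and 3422 lower.

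Cdx2, the homeobox gene that Tead4 and Yap1 switch on in outer cells, kept a low score at its own bin: -0.43, -0.42 and -0.43 in Del8 cells and -0.47, -0.43 and -0.44 in WT cells. The groups overlapped, and the difference was 0.019 ± 0.025 (SE, limma adjusted p = 0.539). A border lay at the gene in all 6 libraries, in the bin at +50 kb in each Del8 library and in the Cdx2 bin in each WT library. Here a border is a local minimum of the score with a prominence of 0.2 or more. Its depth at +50 kb did not differ beyond the spread, at -0.44, -0.44 and -0.45 in Del8 cells and -0.45, -0.40 and -0.42 in WT cells.

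Farther out the scores around Cdx2 moved both ways. They fell from +100 to +350 kb, over 6 adjacent bins, most at +200 kb, where they were -0.26, -0.31 and -0.25 in Del8 cells and -0.036, -0.022 and -0.025 in WT cells (difference -0.25 ± 0.028 SE, limma adjusted p = 0.00023). The stretch includes the lower end of Flt1, the receptor for vascular endothelial growth factor that trophoblast secretes in soluble form, whose bin fell by 0.24 on the log2 scale. Beyond it, from +500 to +750 kb, 6 adjacent bins had higher scores, most at +600 kb, where they were 0.14, 0.20 and 0.20 in Del8 cells and -0.033, -0.14 and -0.10 in WT cells (difference 0.27 ± 0.035 SE). The deep border at -700 kb, where WT replicate 1 stood at -1.50 and the other 5 libraries at -0.93 to -0.81, did not pass the test (0.24 ± 0.14 SE, limma adjusted p = 0.176).

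Gata3, a zinc finger factor that acts beside Cdx2 in trophectoderm, had the highest score of the 8 in both groups, with 0.45, 0.46 and 0.44 in Del8 cells and 0.32, 0.24 and 0.44 in WT cells. WT replicate 3 lay level with the Del8 libraries, and the difference of 0.12 ± 0.047 did not pass (SE, limma adjusted p = 0.0597). Without that library it was 0.17 and passed (adjusted p = 0.00275), and against that library alone it was 0.012 (adjusted p = 0.787). Only 27 of the 41 bins around Gata3 were usable, so 22 had a score and no direction of contact could be given. The nearest border, at +200 kb in the bin of Itih2, Kin and Atp5c1, was called in all 6 libraries and overlapped between groups, at -0.10, -0.089 and -0.12 in Del8 cells and -0.32, -0.32 and -0.09 in WT cells. A border at +450 kb was called in all 3 WT libraries and in none of the Del8 libraries. The scores there were 0.012, 0.0057 and -0.018 in Del8 cells and -0.16, -0.17 and -0.062 in WT cells (difference 0.13 ± 0.035 SE, limma adjusted p = 0.0114), a call lost against WT replicate 3 alone (0.062, adjusted p = 0.164) and in a 250 kb square (0.13, adjusted p = 0.0565). The largest fall, at +750 kb, was to 0.57, 0.58 and 0.56 in Del8 cells, against 0.73, 0.78 and 0.74 in WT cells (-0.18 ± 0.026 SE).

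Tfap2c encodes AP-2 gamma, a factor of trophectoderm and of primordial germ cells. Its bin scored -0.27, -0.21 and -0.22 in Del8 cells and -0.31, -0.34 and -0.34 in WT cells. The groups did not overlap, but the rise of 0.10 ± 0.027 (SE, limma adjusted p = 0.0148) was small and lost its call without Del8 replicate 2 (0.086, adjusted p = 0.059), without Del8 replicate 3 (0.092, adjusted p = 0.052) and in the bin of the gene's other end (0.051, adjusted p = 0.141). It was also lost in a 250 kb square (0.065, adjusted p = 0.182) and with raw counts over bin coverage (0.069, adjusted p = 0.176).

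Both borders around Tfap2c were called in both groups. The one at -300 kb, in the bin of the melanocortin receptor gene Mc3r, scored -0.84, -0.79 and -0.82 in Del8 cells and -0.84, -0.82 and -0.90 in WT cells, and overlapped. At +550 kb the border lies in the bin of Ctcfl, the germ-line relative of Ctcf itself. There the score was -0.12, -0.15 and -0.14 in Del8 cells and -0.39, -0.36 and -0.40 in WT cells, a rise of 0.25 ± 0.025 (SE, limma adjusted p = 0.000153). It was the largest rise around the gene, within a run of 9 bins with higher scores from +250 to +650 kb. The largest fall lay at -600 kb, with 0.29, 0.28 and 0.30 in Del8 cells and 0.42, 0.43 and 0.49 in WT cells (-0.16 ± 0.028 SE, limma adjusted p = 0.00175).

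Eomes, a T-box gene needed for trophoblast stem cells and later for mesoderm and endoderm, had scores of -0.18, -0.15 and -0.15 in Del8 cells and -0.40, -0.43 and -0.28 in WT cells. No Del8 library reached down to the WT libraries, and the rise was 0.21 ± 0.04 (SE, limma adjusted p = 0.00249). Against WT replicate 3 alone it was 0.12 and still passed (adjusted p = 0.0185). A border was called beside the gene at +50 kb, in the bin of the golgin gene Golga4, in all 3 WT libraries and, with a prominence of 0.22 each, in Del8 replicate 1 there and in Del8 replicate 2 one bin on. Its score was -0.21, -0.18 and -0.20 in Del8 cells and -0.48, -0.52 and -0.34 in WT cells, higher in Del8 cells by 0.25 ± 0.043 (SE, limma adjusted p = 0.00163).

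The next border, at +450 kb in the bin of the phosphatase gene Ctdspl, was called in all 3 WT libraries and in no Del8 library. In WT replicate 3 its prominence was 0.20, at the cut. Scores were 0.10, 0.11 and 0.13 in Del8 cells and -0.18, -0.26 and -0.17 in WT cells, the largest rise around Eomes (0.32 ± 0.032 SE, limma adjusted p = 0.000126). It was the peak of a run of 8 higher bins, from +250 to +600 kb. On the other side, 7 adjacent bins from -800 to -500 kb had lower scores. At -500 kb, the lowest, the scores were -0.26, -0.18 and -0.18 in Del8 cells and 0.066, 0.16 and -0.15 in WT cells, a difference of -0.23 (adjusted p = 0.0228) that was lost without any 1 library other than WT replicate 3 (-0.24 to -0.16, limma adjusted p of 0.0506 to 0.0774) and was -0.053 against WT replicate 3 alone. It was also lost in a 250 kb square (-0.13, adjusted p = 0.433).

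**Figure D3:**
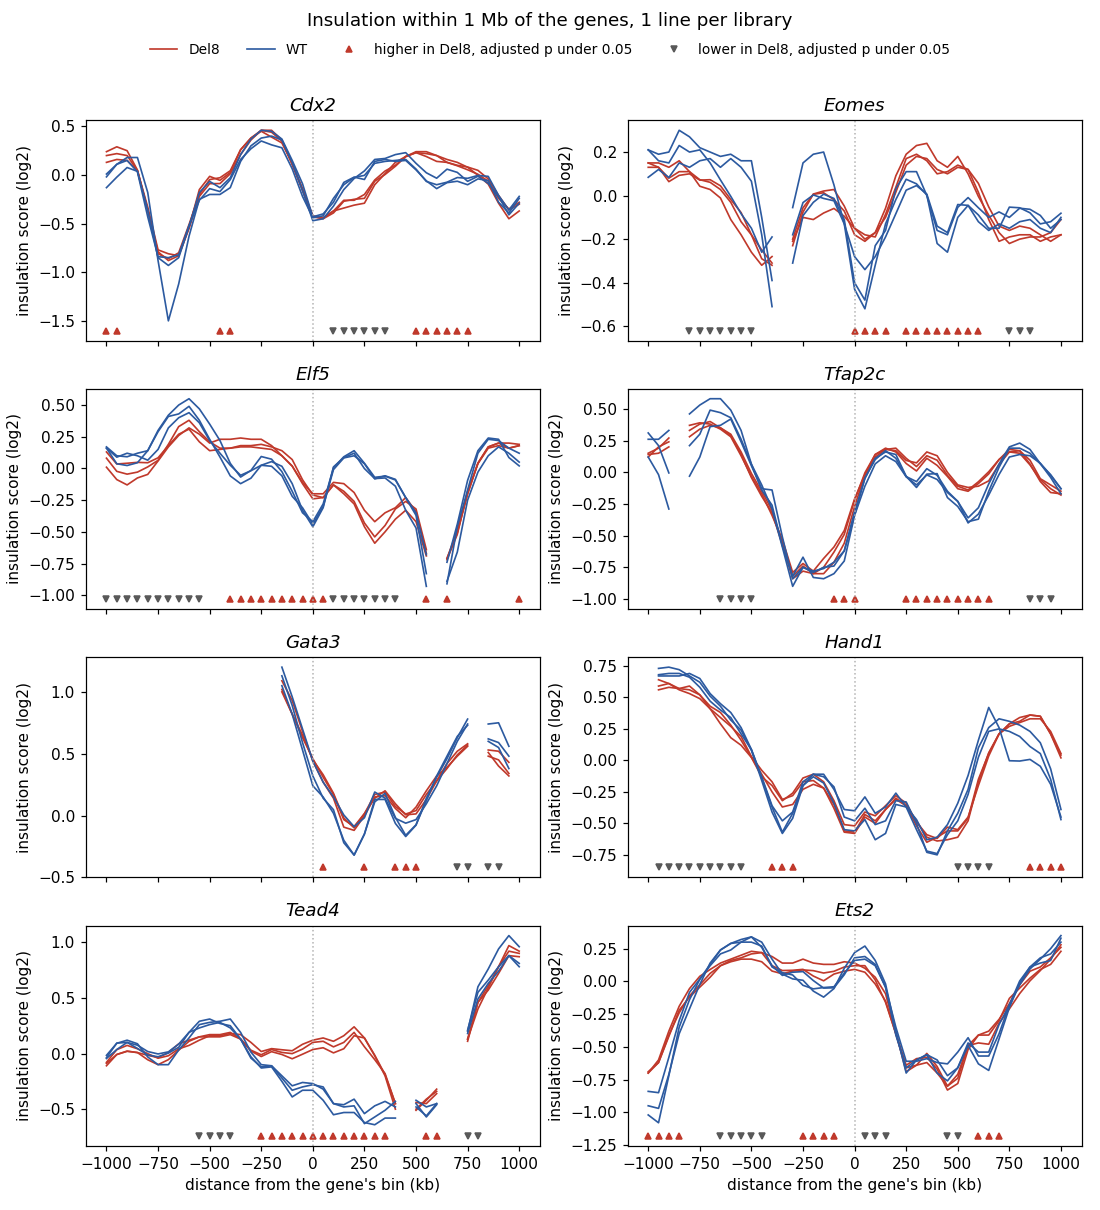
Insulation score (log2) against distance from the gene's bin (kb), 1 line per library, Del8 in red and WT in blue, with gaps where a bin had no score; triangles mark bins past the threshold in limma, upward for higher and downward for lower in Del8 cells. At Tead4 the Del8 lines run above the WT lines from -250 to +350 kb. At Elf5 the Del8 lines run above the WT lines at the gene and below them at +300 kb.

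The side to which the Eomes bin makes its contacts changed as well. Direction of contact is log2 of observed over expected contact on the side of higher coordinates minus that on the side of lower coordinates, 100 kb to 1 Mb away. It was -0.046, 0.02 and 0.079 in Del8 cells, close to even, and -0.94, -1.10 and -0.67 in WT cells, toward lower coordinates. The difference of 0.92 ± 0.11 (SE, limma adjusted p = 1.94e-05) exceeded that of 99.6% of all bins and was 0.69 against WT replicate 3 alone. Over all bins tested, 16.8% were called higher and 18.4% lower (35.2% in all).

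Both sides contributed. On the side of higher coordinates, which holds Golga4 and Ctdspl, the Eomes bin had 0.908, 1.00 and 0.969 times the expected contact in Del8 cells and 0.665, 0.643 and 0.735 times in WT cells, a ratio of 1.41. On the side of lower coordinates it had 0.938, 0.99 and 0.917 times in Del8 cells and 1.27, 1.38 and 1.17 times in WT cells, a ratio of 0.743. Neither side overlapped between the groups. The local contact level summed over both sides was -0.068 ± 0.057 in Del8 cells and -0.046 ± 0.042 in WT cells (SD, n = 3 each) and overlapped.

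**Figure D4:**
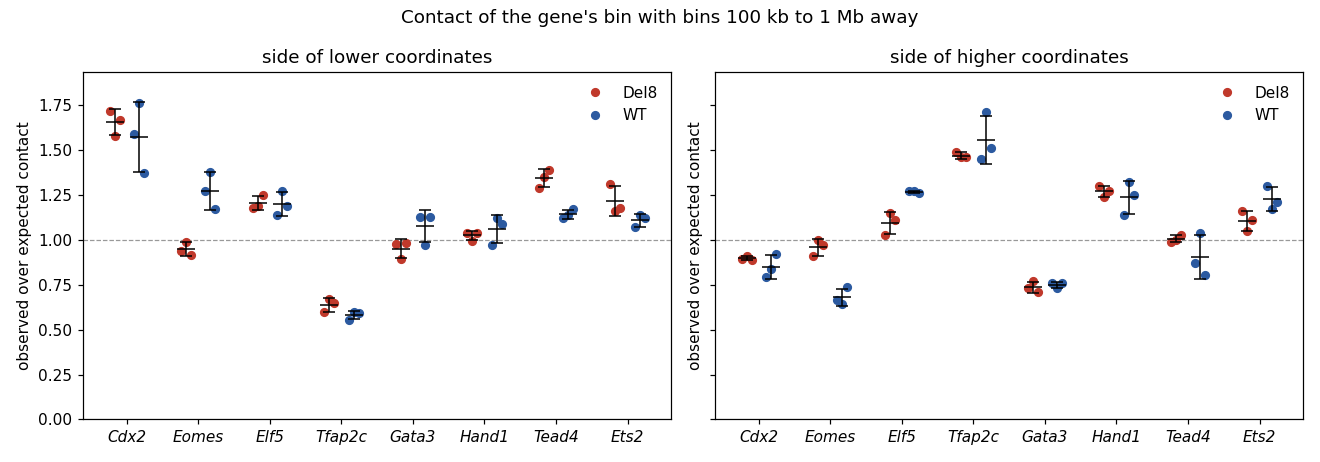
Observed over expected contact of each gene's bin with bins 100 kb to 1 Mb away, on the side of lower coordinates (left panel) and of higher coordinates (right panel), 1 point per library, Del8 in red and WT in blue, with mean and SD of 3 libraries; the dashed line marks 1. Eomes lies at 0.917 to 0.99 in Del8 cells and at 1.17 to 1.38 in WT cells on the left, and at 0.908 to 1.00 in Del8 cells and at 0.643 to 0.735 in WT cells on the right.

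Elf5, an Ets family gene that is methylated and silent in ES cells and locks in trophoblast fate by acting on Cdx2 and Eomes, lay on a border in WT cells. The border was called at the Elf5 bin in all 3 WT libraries and in none of the Del8 libraries. The bin scored -0.21, -0.24 and -0.20 in Del8 cells and -0.44, -0.46 and -0.42 in WT cells, a rise of 0.22 ± 0.026 (SE, limma adjusted p = 0.000246). In a 250 kb square the rise was 0.38.

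In Del8 cells a shallower dip remained at the gene, with -0.23, -0.23 and -0.20 at +50 kb. A second dip, at +300 kb, stood at -0.54, -0.59 and -0.42 in Del8 cells. In WT cells the scores at +300 kb were -0.082, -0.08 and -0.07. At +300 kb, in the bin of the RNA acetyltransferase gene Nat10, a border was called in Del8 replicates 1 and 2 and in no WT library. Around the gene the scores rose in 10 adjacent bins from -400 to +50 kb and fell in 7 from +100 to +400 kb. At the largest rise, at -350 kb in the bin of the methionine salvage gene Apip, scores were 0.18, 0.24 and 0.17 in Del8 cells and -0.12, -0.054 and -0.068 in WT cells (difference 0.28 ± 0.031 SE). At the largest fall, at +250 kb, they were -0.43, -0.46 and -0.33 in Del8 cells and 0.037, -0.0012 and 0.041 in WT cells. That difference of -0.44 ± 0.038 (SE, limma adjusted p = 7.54e-05) was lower than all but 0.221% of bins.

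Contacts of the Elf5 bin were lower in the same reach. At 300 to 500 kb they stood at 1.09, 1.07 and 1.23 times the expected contact in Del8 cells and 1.35, 1.61 and 1.47 times in WT cells, a ratio of 0.765 with no overlap; 15.5% of all bins lay lower without overlap at this range. On the side of higher coordinates as a whole the values were 1.03, 1.15 and 1.11 in Del8 cells and 1.27, 1.27 and 1.26 in WT cells. On the other side they were 1.21 ± 0.0385 in Del8 cells and 1.20 ± 0.0651 in WT cells (SD, n = 3 each). The direction of contact, -0.14 ± 0.078 in Del8 cells and 0.079 ± 0.079 in WT cells (SD, n = 3 each), did not overlap between groups but did not pass the test (-0.22, limma adjusted p = 0.0774). Of all bins, 24.1% lay lower without overlap on this measure.

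Ets2, another Ets family gene, needed for trophoblast stem cells to renew themselves, had scores of 0.092, 0.14 and 0.12 in Del8 cells and 0.22, 0.16 and 0.18 in WT cells. The groups did not overlap, and the difference of -0.07 ± 0.028 missed the threshold (SE, limma adjusted p = 0.0585), though it passed with libraries centred on their medians (-0.093, adjusted p = 0.0215) and in a 250 kb square (-0.16, adjusted p = 0.0176). Its contact turned toward lower coordinates, with a direction of -0.18, -0.15 and -0.082 in Del8 cells and 0.27, 0.039 and 0.11 in WT cells. That difference, -0.27 ± 0.10 (SE, limma adjusted p = 0.0365), lost its call without Del8 replicate 1, 2 or 3 or WT replicate 1 (-0.30 to -0.21, adjusted p of 0.0598 to 0.124), and also with WT replicate 3 alone (-0.24, adjusted p = 0.156), from 50 kb (-0.24, adjusted p = 0.0696) and to 500 kb (-0.28, adjusted p = 0.0711).

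A shallow border below Ets2, at -150 kb or one bin farther, was called in all 3 WT libraries and in no Del8 library. The largest rise was at -950 kb, at the edge of the stretch examined, with -0.60, -0.62 and -0.62 in Del8 cells and -0.97, -1.08 and -0.85 in WT cells (0.35 ± 0.052 SE, limma adjusted p = 0.000769), and 0.23 against WT replicate 3 alone (adjusted p = 0.000869). The deep border at +450 kb, in the bin of the ciliary gene Lca5l, became slightly deeper: -0.80, -0.80 and -0.83 in Del8 cells and -0.76, -0.72 and -0.63 in WT cells (-0.11 ± 0.036 SE, limma adjusted p = 0.032). The largest fall, at +100 kb, was to -0.02, 0.032 and 0.011 in Del8 cells, against 0.16, 0.12 and 0.13 in WT cells (-0.13, and -0.22 in a 250 kb square).

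Hand1, the helix-loop-helix gene of trophoblast giant cells, had the lowest mean score of the 8, with -0.57, -0.58 and -0.52 in Del8 cells and -0.56, -0.48 and -0.40 in WT cells. The groups overlapped through WT replicate 1, and the difference of -0.072 ± 0.042 did not pass (SE, limma adjusted p = 0.17). It passed without WT replicate 1 (-0.11, adjusted p = 0.0317) and against WT replicate 3 alone (-0.15, adjusted p = 0.00971). A border at the Hand1 bin was called in all 3 Del8 libraries and in no WT library. WT replicate 1 had a border at +100 kb instead. Scores at +100 kb were -0.48, -0.50 and -0.44 in Del8 cells and -0.63, -0.51 and -0.42 in WT cells. In WT cells that is about as low as at the gene, so the calls do not show a new border in Del8 cells.

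Below Hand1, at -350 kb in the bin of Fam114a2, a border was called in all 3 WT libraries and in Del8 replicate 3 alone. That bin scored -0.37, -0.31 and -0.32 in Del8 cells and -0.58, -0.57 and -0.48 in WT cells, a rise of 0.21 ± 0.036 (SE, limma adjusted p = 0.00145). On the other side, the border at +400 kb, in the bin of the interferon-inducible gene Irgm2, did not pass (0.077, adjusted p = 0.126). The largest rise was at +1000 kb, in a bin of olfactory receptor genes, with 0.02, 0.042 and 0.054 in Del8 cells and -0.45, -0.39 and -0.47 in WT cells (0.48 ± 0.029 SE, limma adjusted p = 2.51e-05), and it was 0.29 in a 250 kb square. The largest fall was at +600 kb, with -0.17, -0.15 and -0.20 in Del8 cells and 0.16, 0.10 and 0.025 in WT cells (-0.27 ± 0.038 SE, limma adjusted p = 0.00061).

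Across all 8 surroundings, 85 of 302 bins (28.1%) had a higher score in Del8 cells and 73 (24.2%) a lower one, near or under the 31.0% and 27.6% of all bins. With libraries centred on their medians the counts were 73 higher and 100 lower, so which direction was the commoner depended on the scaling; the median difference over all bins was 0.0054, and -0.0176 after centring. Without Del8 replicate 1 the lower bins numbered 44. The share higher ran from 17.5% around Hand1 to 39.5% around Tead4, and the share lower from 14.6% around Cdx2 to 42.5% around Elf5. On the map summed over the 6 libraries there were 14 borders, of which 6 had higher scores in Del8 cells, 1 was lower and 7 did not pass. Over all 1070 borders of the genome, 49.4% were higher and 13.7% lower. The Tead4 surroundings held none of the 14. Called library by library, the 8 surroundings held 12, 13 and 11 borders in Del8 cells and 17, 15 and 15 in WT cells. All autosomes together held 1022, 1028 and 1022 in Del8 cells and 1267, 1243 and 1152 in WT cells, so there too each Del8 library had fewer. How often a border elsewhere is called in every library of 1 group and in none of the other was not counted. The borders split in this way here are therefore not shown to be particular to these genes. A dip beside a bin with no score is not called, as at +600 kb from Elf5. Around Tead4, bins between +400 and +500 kb and between +600 and +750 kb had no score. At +400 kb from Tead4 the scores were -0.45, -0.45 and -0.50 in Del8 cells and -0.48, -0.43 and -0.58 in WT cells. The lack of a called border therefore does not show that Tead4 has none nearby.

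Single bin pairs were counted directly, with edgeR's quasi-likelihood test and an offset for library, chromosome and distance. Of 320 pairs that the 8 bins could form, 298 had a usable partner and 224 a mean count of 10 or more. Of these, 0 were higher and 3 lower in Del8 cells at an adjusted p under 0.05, and 17 were higher and 16 lower at an unadjusted p under 0.05. Over all pairs tested, 0.615% were called higher and 0.527% lower (1.14% in all). At an unadjusted p under 0.05, 24374 of all 330794 pairs were higher and 22582 lower, a similar share. The median log2 fold change of the 224 pairs was 0.047. DESeq2 called 1 of them.

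The pair with the lowest adjusted p in edgeR joined Eomes to -400 kb, the bin of the mitochondrial gene Cmc1. It had 42, 29 and 19 contacts in Del8 cells and 49, 36 and 32 in WT cells, although the Del8 libraries are the deeper ones. Relative to expectation that was 1.14, 1.11 and 0.848 in Del8 cells and 3.24, 2.29 and 1.63 in WT cells, a log2 fold change of -1.15 ± 0.25 (SE, edgeR adjusted p = 0.0105). The call was lost without Del8 replicate 1 (-1.24, adjusted p = 0.051), Del8 replicate 3 (-1.05, adjusted p = 0.0699) or WT replicate 1 (-0.88, adjusted p = 0.125). It was also lost with WT replicate 3 alone, where the value was -0.63. In the next bin out, at -450 kb (Azi2), Eomes had 0, 0 and 24 contacts in WT replicates 1 to 3. Del8 replicates 1 to 3 had 27, 12 and 15 there. Whether a local loss of contacts in WT replicates 1 and 2 bears on the pair at -400 kb was not tested.

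A pair of Eomes at -300 kb, named after its values were seen, had 53, 47 and 46 contacts in Del8 cells and 52, 43 and 56 in WT cells. Its observed over expected contact was 1.09, 1.38 and 1.55 in Del8 cells and 2.54, 2.04 and 2.16 in WT cells (log2 fold change -0.77 ± 0.20 SE, edgeR adjusted p = 0.0388). It missed the threshold when any 1 library was left out (-0.87 to -0.62, adjusted p of 0.0544 to 0.231), against WT replicate 3 alone (-0.72, adjusted p = 0.282) and with DESeq2 (-0.75, adjusted p = 0.126). The bin between these partners, at -350 kb, was not usable.

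Elf5 lost contact with a bin at +450 kb that holds no protein-coding gene's lower end. Contacts numbered 24, 18 and 18 in Del8 cells and 18, 22 and 38 in WT cells, which is 0.704, 0.744 and 0.866 times the expected contact in Del8 cells and 1.33, 1.53 and 2.11 times in WT cells. The log2 fold change was -1.14 ± 0.29 (SE, edgeR adjusted p = 0.0342). The call stood when WT replicate 1 was left out (-1.27, adjusted p = 0.0319) and was lost when any other library was (-1.21 to -0.90, adjusted p of 0.0688 to 0.199). Against WT replicate 3 alone it was -1.46 (adjusted p = 0.0494), and the call was lost with bin coverage in the offset (-0.96, adjusted p = 0.0903) and with DESeq2 (-1.08, adjusted p = 0.146). Its neighbours at +300 kb (Nat10), +350, +500 and +550 kb (Lmo2) also lay lower without overlap, with log2 fold changes of -0.62, -0.68, -0.77 and -0.81, none past the threshold (adjusted p of 0.0715 to 0.279). The pair of Elf5 at +400 kb overlapped between groups (-0.40, edgeR adjusted p = 0.695). On the side of lower coordinates, its pairs at -350 and -300 kb also lay lower without overlap (-0.64 and -0.39), neither past the threshold. Of all pairs tested, 9.22% lay lower without overlap. The widest fold among the 224 pairs, between Cdx2 and the bin of Gpr12 at -750 kb, rested on 23, 26 and 13 contacts in Del8 cells and 0, 6 and 3 in WT cells, and did not pass (log2 fold change 1.93 ± 0.53 SE, edgeR adjusted p = 0.0568).

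**Figure D5:**
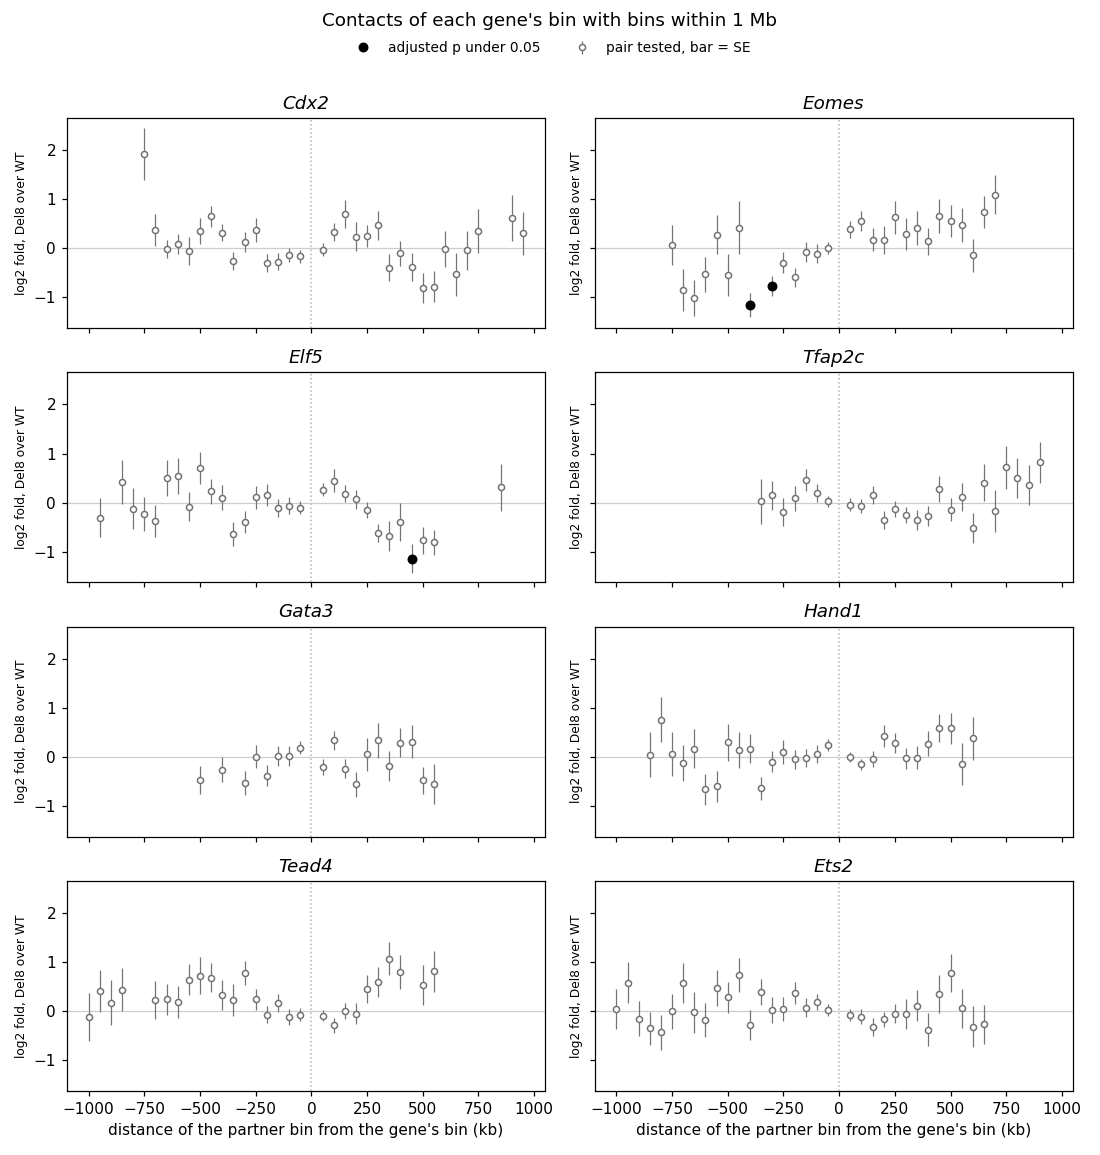
Log2 fold change (Del8 over WT) of each pair of a gene's bin with a bin up to 1 Mb away, against the partner's distance (kb); bars are the SE and filled points passed the edgeR test. Filled points are the pairs of Eomes at -400 kb (-1.15) and -300 kb (-0.77) and the pair of Elf5 at +450 kb (-1.14).

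Genes of the same pathway and lineage were counted from lists, each at the bin of its lower coordinate. Whether a list differs from other genes was not tested. Beside the counts stand the 31.0% higher and 27.6% lower of all bins. Of 16 Hippo pathway genes, the cascade that keeps Yap1 from Tead4 in inner cells, 12 had a score, of which 7 were higher and 1 lower in Del8 cells, with a median difference of 0.12 against 0.0054 over all bins. The kinase gene Lats2 averaged -0.25 ± 0.021 in Del8 cells and -0.75 ± 0.057 in WT cells, and the kinase activator gene Mob1a 0.10 ± 0.014 in Del8 cells and -0.38 ± 0.021 in WT cells (SD, n = 3 each). Tead3, a paralogue of Tead4, rose by 0.29, and Amotl2, an angiomotin gene that holds Yap1 at cell junctions, by 0.19. Tead1, named after its values were seen, was the 1 that fell: 0.20 ± 0.0066 in Del8 cells and 0.37 ± 0.0093 in WT cells (SD, n = 3 each). Yap1 itself had no score.

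Of 21 paralogues of the 8 genes, 15 had a score, of which 9 were higher and 2 lower, beside the same 31.0% and 27.6% of all bins, with a median of 0.12. The largest rise was at Elf2, with -0.29 ± 0.031 in Del8 cells and -0.88 ± 0.047 in WT cells (SD, n = 3 each), and Hand2 rose by 0.27 and Elf1 by 0.25. Tead1, Tead2 and Tead3 stand in this list and in the Hippo list. Of 20 other trophectoderm and trophoblast stem cell genes, 16 had a score, 4 higher and 2 lower (31.0% and 27.6% of all bins), with a median of 0.0025. The keratin genes Krt8 and Krt18, the first keratins of the trophectoderm, rose by 0.34 and 0.32, Sox21 by 0.34 and Id2 by 0.25. Krt8 and Krt18 lie in adjacent bins that share most of their squares, so they are not separate observations. Bmp4 (-0.23) and the keratin gene Krt7 (-0.094), named after their values were seen, were the 2 lower. The keratin gene Krt19, also named afterwards, did not pass (0.15, limma adjusted p = 0.0682). Of 14 placental genes, 7 had a score, 4 higher and 1 lower (31.0% and 27.6% of all bins), with a median of 0.13. Among them Gcm1, the master gene of syncytiotrophoblast, rose by 0.25. It stood at -0.12 ± 0.082 in Del8 cells and -0.37 ± 0.19 in WT cells (SD, n = 3 each, limma adjusted p = 0.0351). Phlda2, an imprinted gene that restrains placental growth, also rose by 0.25, and the fusion gene Syna by 0.24. Phlda2 and Cdkn1c, another of the 4 higher, lie in adjacent bins that share most of their squares, so they are not separate observations. Flt1 fell by 0.24, in a bin already counted around Cdx2.

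For each gene, the gene bin on another chromosome with the most similar 6 scores was found by Euclidean distance. Tead4 was nearest to Mdh1b on chromosome 1, which scored 0.11, 0.05 and 0.12 in Del8 cells and -0.32, -0.30 and -0.31 in WT cells (distance 0.0605). Elf5 was nearest to the bin of Hnrnph3 and Pbld2 on chromosome 10 (0.047) and Eomes to Ier5l on chromosome 2 (0.0722). The others were Pard6b for Cdx2 (0.0385), Gja3 for Tfap2c (0.0252), Bst1 for Gata3 (0.11), Frem3 for Hand1 (0.0634) and Kat6a for Ets2 (0.042). Between 13118 and 14182 genes, some of which shared a bin, were compared for each gene.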

How the data were processed

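Hi-C contacts were deposited by the authors as raw counts of pairs of 50 kb bins on the same chromosome, 1 table per library (3 Del8, 3 WT), in the mm10 build, per the submitters' processing notes. The sources used here do not name an aligner or a read filter. Groups and replicate numbers came from the genotype and title labels. The genes, lists and comparisons were chosen with earlier results of these data known.

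Coverage was each bin's off-diagonal contacts over the library's 75th percentile. A bin was usable if this was above 0.1, and at least 0.5 of the third highest library, in every library, which kept 28229 of 47875 autosomal bins with contacts (59%). The screen removed most bins on account of WT replicates 1 and 2, with 38.1% and 38.8% of bins short. Each chromosome's map was balanced without its diagonal by iterative correction (at most 60 rounds), and a score needed 50% of its 500 kb square. Expected contact was the mean of the library, chromosome and distance. limma 3.58.1 tested insulation, local contact (25626 bins) and direction (20905 bins), and edgeR 4.0.16 the raw counts of pairs up to 1 Mb apart with a mean count of 10 or more. R was 4.3.3. Benjamini-Hochberg adjustment ran over all bins or pairs tested, at 0.05. SE of a pair's fold change came from its quasi-likelihood statistic. DESeq2 1.42.0, other squares, scalings, screens, filters and left-out libraries were alternatives. Leaving out down to 1 WT library assumes that it varies as the other group does. Borders called on each group's own map were added after seeing the data. No 2 libraries agreed within sampling noise (chi-square per degree of freedom 1.65 to 7.53).

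Named bins were, for each gene, the nearest borders, the largest rise and fall in score past the threshold, and the pairs past it; of each list, up to 4 genes with the largest difference past the threshold. On simulated data, limma recovered 62% of insulation shifts of 0.2 and 90% of shifts of 0.4 over 22636 bins. There edgeR recovered 32% of pairs changed by 1 on the log2 scale and 93% of those changed by 2 over 330794 pairs. Few bins or pairs were changed in the simulation, and their noise was independent. In the real data 58.6% of insulation scores were called and neighbouring bins share squares, so these shares do not give the recovery there.

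Replicate numbers are shared by both groups, but no label says that a number marks a shared batch. No block was therefore used in the main fits, and a block was run as an alternative. The deviations of same-numbered libraries from their group's mean insulation score did not run together.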

Additional observations from a re-analysis of the deposited data

How the results depend on the processing

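The insulation calls of Tead4, Elf5 and Eomes, the direction of contact at Eomes and the largest rises around Tead4 and Hand1 kept their direction and call under every alternative run other than the looser screen, under which, of these, the direction at Eomes (0.89) kept its call. That screen gave 0 calls among gene bins, 0 higher and 0 lower among surrounding bins, 0 lower in direction and 0 pairs. It reversed the insulation of Cdx2 (-0.45) and Tfap2c (-0.36), the rises at +600 kb from Cdx2 (-0.20), +550 kb from Tfap2c (-0.21) and -950 kb from Ets2 (-0.80), and local contact at Cdx2 (-0.043) and Hand1 (-0.086). The cause was not tested. Gene bins with lower insulation numbered 1 in place of 0 with centring, with a 250 kb square and against WT replicate 3 alone, and 0 to 1 over left-out libraries. Centring put Cdx2 at -0.0041. Surrounding bins with lower scores numbered 44 with raw counts over bin coverage and 44 to 66 over left-out libraries.

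Local contact gave 1 higher bin on balanced contact and 0 to 1 over left-out libraries. Small values changed sign. Over left-out libraries local contact ran from -0.054 to 0.0022 at Eomes, -0.061 to 0.039 at Tfap2c, -0.056 to 0.048 at Hand1 and -0.052 to 0.026 at Ets2, and direction from -0.095 to 0.15 at Cdx2 and -0.17 to 0.037 at Tead4. Against WT replicate 3 alone, local contact was 0.011 at Eomes, 0.0051 at Tfap2c and -0.026 at Hand1, and direction was 0.13 at Tead4. Balanced contact gave 0.028 at Tfap2c and 0.0073 at Ets2. From 50 kb, local contact at Eomes was 0.016; to 500 kb it was 0.0091 at Ets2, and direction at Cdx2 was 0.063. Bins called lower in direction numbered 0 from 50 kb, to 500 kb and against WT replicate 3 alone, and 0 to 1 over left-out libraries. Pairs called lower numbered 1 with DESeq2 and against WT replicate 3 alone and 0 to 1 over left-out libraries, where 0 to 2 were higher; TMM factors gave 1 higher. Borders numbered 19 at a prominence of 0.1 and 10 at 0.3.

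The replicate numbers did not pair the samples (correlations of insulation deviations between same-numbered libraries -0.094, -0.027 and -0.178). With the number as a replicate block, 4 gene bins had higher insulation, 77 surrounding bins were higher and 61 lower, and 1 pair was called lower.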
